A study of Mus musculus with 9 samples.

Results

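The transgelin, calponin and caldesmon genes were followed here through 19 probe sets that the array annotation assigns to 1 symbol each, covering 8 genes: Tagln, Tagln2, Cnn1, Cnn2, Cnn3, Cald1, Smtn and Lmod1. They were chosen by symbol from the 34945 probe sets with 1 symbol among the 45101 of the array. The study measured total RNA of mouse NIH 3T3 cells, an established fibroblast line, on 9 Affymetrix expression arrays in 3 groups of 3. All cultures, the controls included, were starved of serum and kept for 2 h in 3 µg/ml cycloheximide, which blocks translation. The cytochalasin D group was given that drug at 2 µM for 90 min. The third group received latrunculin B at 5 µM for 90 min, and cytochalasin D as well by its agent label and the design text, while its titles name latrunculin B alone. The agent label decided here, so these arrays are referred to as the double-drug group; which reading holds was not tested. Both drug groups are labelled as having depolymerized actin filaments. All values describe 1 cell line with translation blocked. The arrays of a group carry the replicate numbers 1, 3 and 7, and the design calls them independent biological replicates.

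These genes encode proteins that lie along actin filaments or build them. Transgelins and calponins are small relatives that share a calponin homology domain, bind filamentous actin and bundle it, and calponin also slows the actomyosin ATPase. Caldesmon spans actin, tropomyosin and myosin and holds back contraction until it is phosphorylated. Smoothelin is a stress fibre protein of contractile smooth muscle, and leiomodin 1 nucleates actin filaments in smooth muscle. Several of them are textbook targets of serum response factor (SRF), a DNA-binding factor whose coactivator MRTF is held by monomeric actin (G-actin). Cytochalasin D frees MRTF from G-actin and latrunculin B keeps it bound, and the study asked which genes follow this G-actin switch.

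With cytochalasin D, the single probe sets of Tagln, Cnn1 and Cnn2 rose, as did 1 of 3 for Tagln2 and 2 of 6 for Cnn3, while no probe set of Cald1 or Smtn passed the test. Tagln was 9.13 times and Cnn2 2.14 times its control mean; the called probe set of Tagln2 was 1.64 times and those of Cnn3 were 1.25 and 1.32 times theirs. Cnn1 went from a mean intensity of 4.59, in the dim range of the control arrays, to 37.0, and no fold is given for it. In the double-drug group the means of Tagln, Tagln2, Cnn1, Cnn2 and Cnn3, each by the probe set with the highest mean, lay between those of the control and cytochalasin D groups. Of the members tested Cnn1 alone was called between the 2 drug groups, and its probe set was tested because of its cytochalasin D values.

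Values are linear intensities as normalized by the authors, and the median per array lay between 7.57 and 7.84. The file gives no detection calls, so a value is described as dim where it lay near or under the 40th percentile of its array. Tests were made with limma on log2(intensity + 16) over 27010 probe sets, those above the 40th percentile of their array on at least 3 arrays; adjusted p-values are Benjamini-Hochberg values over all of them, and a probe set was called when its adjusted p was under 0.05. Of the 19 member probe sets 17 were tested, for 7 genes; the Lmod1 probe set and 1 of 5 for Cald1 were too dim. The arrays correlated with each other at 0.986 to 0.9977. Arrays of replicate number 1 deviated from their group means together (correlation of deviations 0.71 to 0.834 between groups), as did those of number 7 (0.653 to 0.756), whereas for number 3 the control and cytochalasin D arrays hardly did (0.076). Fibroblast markers were bright: 11 of 12 lay above the 40th percentile on all 9 arrays, with Lum, lumican, above it on none. Of 5 defining smooth muscle markers, Myocd, Kcnmb1 and Pln lay below that percentile on all arrays, Myh11 and Des above it but at no more than 8.56, and their summed intensity was 30.9 to 32.3 in controls, 32.1 to 32.6 with cytochalasin D and 31.7 to 33.1 in the double-drug group. In bulk RNA such as this, a change in the number of cells that use a gene and a change of RNA per cell cannot be told apart.

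**Figure D1:**
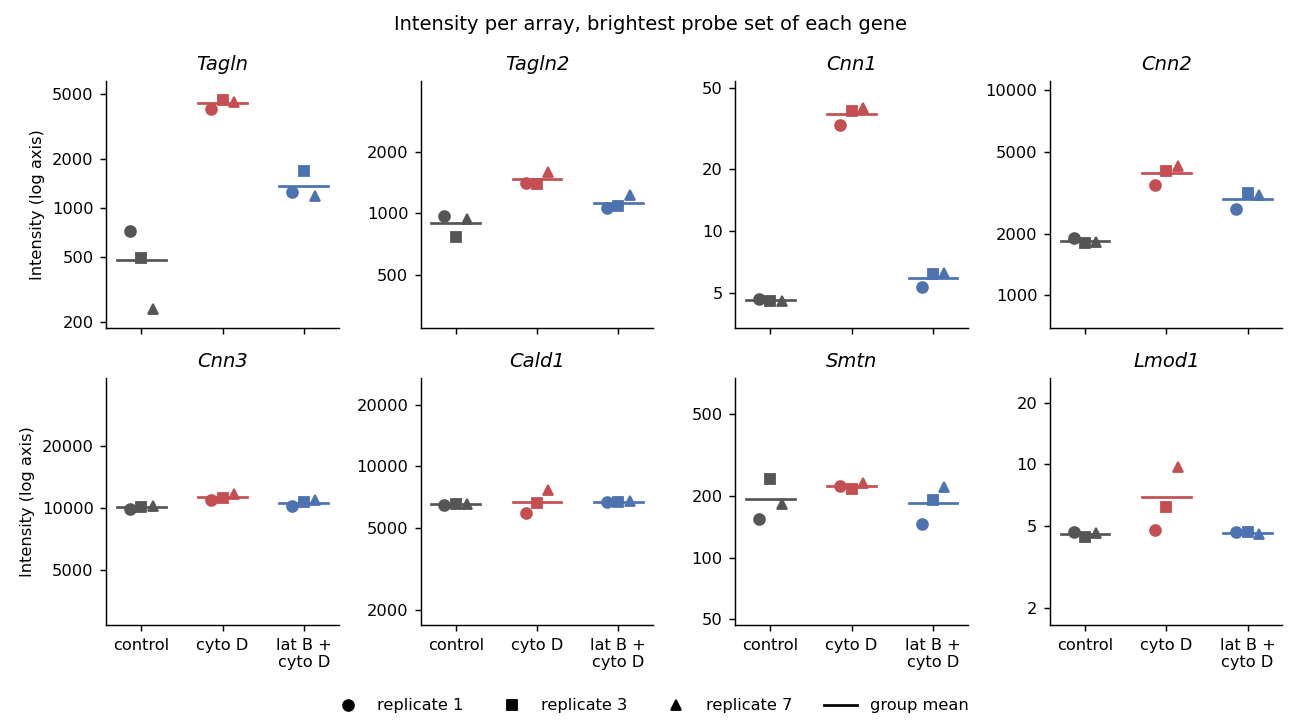
Intensity of the brightest probe set of each of the 8 genes on every array (vertical log axis, each panel on its own range; circles, squares and triangles are replicates 1, 3 and 7, bars are group means). The 3 cytochalasin D values of Tagln, Cnn1 and Cnn2 lie above all other arrays, while the groups overlap for Smtn.

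Transgelin, encoded by Tagln, cross-links actin filaments in smooth muscle and in activated fibroblasts. On its single probe set (1423505_at) the 3 control arrays gave 719.9, 490.0 and 238 for replicates 1, 3 and 7. The cytochalasin D arrays gave 4051, 4654 and 4519, and the double-drug arrays 1254, 1693 and 1182. No value of one group fell into the range of another, and the order was control, double-drug, cytochalasin D. Means were 483 ± 241, 1376 ± 277 and 4408 ± 317 (SD, n = 3) in that order, so the controls had by far the largest spread relative to their mean. Cytochalasin D against control was a log2 change of 3.28 (SE 0.37, 95% confidence interval 2.40 to 4.15, limma adjusted p = 0.00868). Neither neighbouring step of that order passed the test: the double-drug group exceeded controls by 1.59 (interval 0.72 to 2.47, limma adjusted p = 0.329), and cytochalasin D exceeded the double-drug group by 1.68 (interval 0.81 to 2.56, limma adjusted p = 0.319). Set against the control of the same number, the rise with cytochalasin D was 5.63-fold for replicate 1, 9.50-fold for replicate 3 and 19.0-fold for replicate 7. The numbers were not taken to pair the control and cytochalasin D arrays, so these ratios are a description and also carry the spread of the controls. Cytochalasin D over double-drug values of the same number spread less, at 3.23, 2.75 and 3.82.

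Transgelin 2, the broadly expressed relative, had a smaller change. Its probe set with the highest mean (1426529_a_at) read 974, 767 and 935 in controls, 1412, 1386 and 1590.3 with cytochalasin D, and 1057, 1085 and 1225 with both drugs. The 3 groups did not overlap and stood in the same order as for Tagln. The log2 change was 0.71 for cytochalasin D against control (SE 0.11, limma adjusted p = 0.0278), 0.33 for the double-drug group (adjusted p = 0.676 in limma) and 0.38 between the drug groups (adjusted p = 0.617 in limma). The first of these calls ended when any 1 of 7 arrays was left out: control replicate 3 or 7 (limma adjusted p = 0.0508 and 0.0817), each cytochalasin D array (0.0618, 0.0867 and 0.0836 for replicates 1, 3 and 7), or replicate 1 or 3 of the double-drug group (0.0575 and 0.0689). A second probe set (1439407_x_at) had a log2 change of 0.46 (interval 0.08 to 0.83, limma adjusted p = 0.361), with no overlap between cytochalasin D and control. The third (1420245_x_at) stayed between 6.11 and 6.43 on all arrays, near the 40th percentile, with a change of 0.00018.

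Cnn1 encodes calponin 1, the isoform of differentiated smooth muscle. Its probe set (1417917_at) read 4.64, 4.56 and 4.56 in controls, percentiles 14.1 to 14.3 of those arrays. With cytochalasin D it read 33.0, 38.3 and 39.8, and with both drugs 5.34, 6.14 and 6.21. All 3 double-drug values were above all 3 controls, yet close to them, and far below the 3 cytochalasin D values. The log2 change was 1.36 for cytochalasin D against control (SE 0.05, limma adjusted p = 0.000302). It was 0.09 for the double-drug group against control (interval -0.02 to 0.20, limma adjusted p = 1.0). Cytochalasin D exceeded the double-drug group by 1.27 (interval 1.16 to 1.39, limma adjusted p = 0.000913). Sizes of change for so dim a probe set rest on the added constant: with 1 in place of 16 the first change was 2.76 and with 64 it was 0.56, and the difference between drug groups was 2.46 and 0.53. The probe set also entered the test through its drug-treated values, being above the 40th percentile on 0 control, 3 cytochalasin D and 1 double-drug arrays. Its calls with that filter are therefore no independent sign of a difference. With no filter on dim probe sets, cytochalasin D was called against controls and against the double-drug group too. The members were, however, chosen with earlier results of these data known.

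Cnn2, calponin 2, is found in many cell types outside muscle. Its probe set (1450981_at) read 1909, 1798 and 1818 in controls, 3462, 4064 and 4289 with cytochalasin D, and 2628, 3156 and 3081 with both drugs. Controls were close together at 1842 ± 59.1 (SD, n = 3), and the 3 groups did not overlap. Cytochalasin D against control gave a log2 change of 1.08 (SE 0.10, interval 0.85 to 1.32, limma adjusted p = 0.00360). The double-drug change of 0.67 (interval 0.44 to 0.90) was the member change nearest to a call in that comparison (limma adjusted p = 0.0937, and 0.0684 to 0.359 over the alternatives). Cytochalasin D exceeded the double-drug group by 0.41 (interval 0.18 to 0.64, limma adjusted p = 0.41). Its mean was 1.60 times the control mean with both drugs and 2.14 times with cytochalasin D.

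Promoters are shown for Cnn2, which has a match to the SRF motif, for Cnn1, its smooth muscle relative, which has none, and for Lmod1, which has near matches. They are the 250 bases before the annotated start on the plus strand of GRCm38.p6, from RefSeq: Cnn2 at chr10:79988350-79988599, Cnn1 at chr9:22099003-22099252 and Lmod1 at chr1:135324563-135324812. Capitals mark matches to the CArG box, the 10-base SRF consensus, with up to 1 mismatch; the motif reads alike on both strands.
Cnn2: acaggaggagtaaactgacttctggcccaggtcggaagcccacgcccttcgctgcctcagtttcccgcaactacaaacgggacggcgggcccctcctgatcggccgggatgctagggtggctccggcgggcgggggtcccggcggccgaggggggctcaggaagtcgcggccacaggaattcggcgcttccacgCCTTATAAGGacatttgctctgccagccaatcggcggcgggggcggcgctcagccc
Cnn1: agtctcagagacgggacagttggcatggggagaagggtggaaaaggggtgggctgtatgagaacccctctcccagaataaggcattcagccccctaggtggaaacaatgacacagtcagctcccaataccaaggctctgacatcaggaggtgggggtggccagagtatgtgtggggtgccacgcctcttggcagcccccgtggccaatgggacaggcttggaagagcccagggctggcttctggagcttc
Lmod1: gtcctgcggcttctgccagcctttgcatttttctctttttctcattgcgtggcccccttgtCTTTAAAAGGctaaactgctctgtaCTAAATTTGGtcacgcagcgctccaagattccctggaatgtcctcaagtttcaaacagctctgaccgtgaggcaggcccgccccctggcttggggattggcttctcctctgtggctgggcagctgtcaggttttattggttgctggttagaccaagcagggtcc

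Sequences were listed for 7 of the 8 genes, that of Tagln being the exception. The Cnn2 window held 1 match without a mismatch, which begins 56 bases before the start. No other of the 7 genes had one, and among all 32851 promoter windows of that length 1.47% did. Lmod1 had 2 matches with 1 mismatch, beginning 189 and 164 bases before the start, and 1 of the 2 Cald1 windows had 1; of all windows 18.6% had a match at that tolerance. Tagln2, Cnn1, Cnn3 and Smtn had none in these windows. The 10 letters of the Cnn2 match occurred in 14 of all windows, among them those of Vcl, encoding vinculin, and Lima1, encoding an actin-binding LIM protein, both from the lists of SRF target genes described below. The 3 stretches of 30 bases around the match are set side by side, with its 10 letters in capitals. They lie at chr10:79988534-79988563 (plus strand), chr14:20929161-20929190 (plus strand) and chr15:99820177-99820206 (minus strand).
Cnn2: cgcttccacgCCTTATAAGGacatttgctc
Vcl: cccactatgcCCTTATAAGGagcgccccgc
Lima1: ctcactttgtCCTTATAAGGctatcctgtt

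Cnn3 encodes calponin 3, the acidic isoform, which is common in non-muscle cells and was measured by 6 probe sets. On all 6 the 3 cytochalasin D values lay above the 3 controls, and the changes differed in size. The only one without the suffix x (1426724_at) read 3128, 2781 and 2111 in controls, 4415, 4759 and 3763 with cytochalasin D, and 3203, 3077 and 2764 with both drugs. It had the largest change, 0.70, but also the widest interval (0.33 to 1.07, limma adjusted p = 0.118). With the replicate number as a block it was called (limma adjusted p = 0.0211), as was 1436836_x_at (0.0149). The numbers were not taken to pair the arrays of this comparison, however. The other 5 carry the suffix x, which Affymetrix gives to probe sets with probes that may match other transcripts. Of these, 1456380_x_at rose by 0.32 (interval 0.23 to 0.41, limma adjusted p = 0.0101) and 1455570_x_at by 0.40 (interval 0.26 to 0.54, limma adjusted p = 0.0278). The former read 9748, 9630.5 and 9009 in controls and 12173, 11826 and 11441 with cytochalasin D, and lost its call without cytochalasin D replicate 3 (limma adjusted p = 0.0541). The latter lost its call without any single array other than cytochalasin D replicate 1 or double-drug replicate 1, with limma adjusted p between 0.0549 and 0.104. The remaining 3 had changes of 0.15 to 0.27 (limma adjusted p = 0.0917 to 0.206). Of these, 1438354_x_at was called without control replicate 1 (limma adjusted p = 0.0299). In the double-drug group the 6 changes from control were 0.07 to 0.19, none of them called. Cytochalasin D exceeded that group by 0.07 to 0.51, with the smallest limma adjusted p at 0.163.

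**Figure D2:**
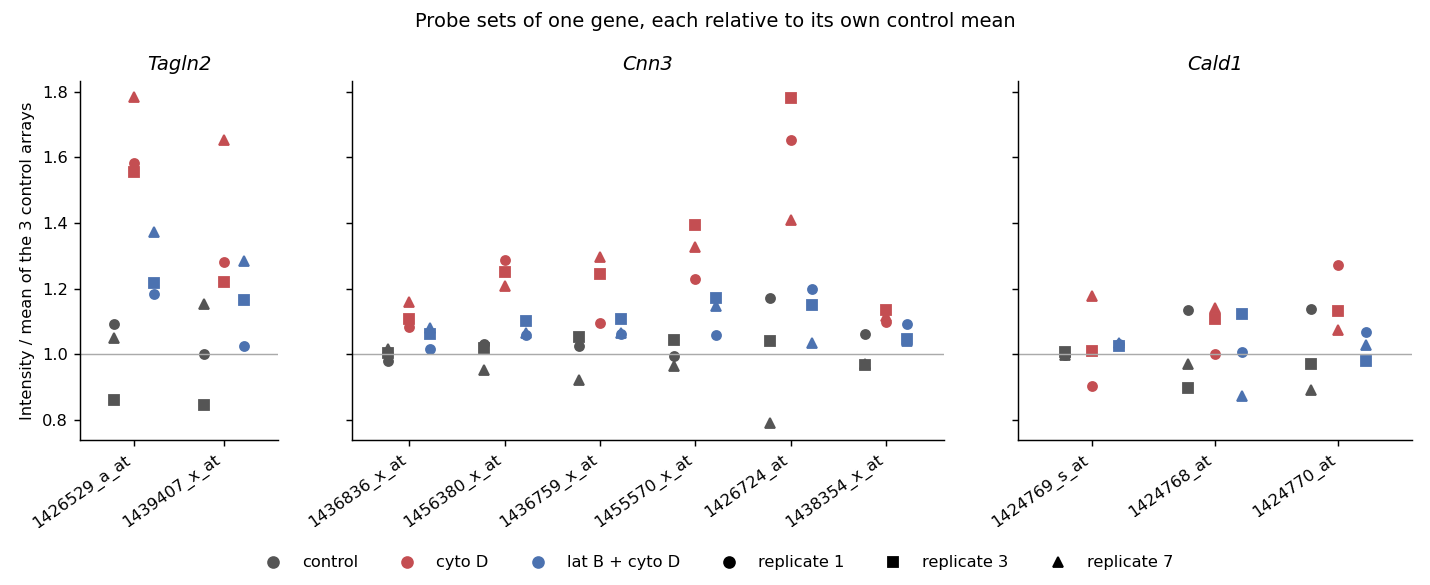
Intensity of each probe set of Tagln2, Cnn3 and Cald1 that lay above the 40th percentile on all arrays, divided by its own control mean (vertical axis, linear), with 1 point per array and colours for the 3 groups. All 6 Cnn3 probe sets have their red cytochalasin D points above the control points, whereas those of 3 Cald1 probe sets overlap with them.

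Cald1 encodes caldesmon, whose short form is the one of non-muscle cells. None of its 3 bright probe sets was called in any comparison. The one with the highest mean (1424769_s_at) read 6498, 6560 and 6514 in controls, 5896, 6597 and 7681 with cytochalasin D, and 6729, 6686 and 6756 with both drugs. The cytochalasin D values enclosed the controls, and the double-drug values lay just above the controls. The log2 change with cytochalasin D was 0.04 (interval -0.17 to 0.24, limma adjusted p = 1.0). For 1424768_at it was 0.12 (interval -0.16 to 0.40) and for 1424770_at 0.22 (interval -0.02 to 0.45, limma adjusted p = 0.56). These intervals reach no higher than 0.45, and that of Tagln starts at 2.40. In the double-drug group the 3 changes from control were -0.00062 to 0.04, none of them called.

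The remaining Cald1 probe sets were dim. One (1433146_at) stayed between 6.16 and 6.31 on all arrays. The other (1433147_at), which was not tested, read 5.06, 5.05 and 4.40 in controls, 20.3, 5.15 and 10.1 with cytochalasin D, and 5.11, 5.06 and 5.05 with both drugs. Its higher mean with cytochalasin D came from replicates 1 and 7.

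Smtn, encoding smoothelin, was measured by 1 probe set (1452469_a_at). It read 154, 241 and 182 in controls, 223, 216 and 231 with cytochalasin D, and 146, 190.1 and 220.4 with both drugs. The groups overlapped in every comparison, and the log2 change was 0.22 (interval -0.21 to 0.65) for cytochalasin D and -0.04 (interval -0.47 to 0.39) for both drugs, each set against controls. It was 0.26 (interval -0.17 to 0.70) between the drug groups. None was called (limma adjusted p = 0.852 for the first), and the first interval is wider than those of the 3 Cald1 probe sets.

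Lmod1, encoding leiomodin 1, was at the dim end in nearly all arrays and was not tested. Its probe set (1427485_at) read 4.65, 4.44 and 4.64 in controls, 4.78, 6.19 and 9.74 with cytochalasin D, and 4.65, 4.66 and 4.56 with both drugs. All 3 cytochalasin D values were above the others, but 1 array, replicate 7, rose above the 40th percentile. With no filter on dim probe sets its change of 0.15 had a limma adjusted p of 0.971.

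Counted over all member probe sets, 6 of the 17 tested were called higher with cytochalasin D than in controls, for Tagln, Tagln2, Cnn1, Cnn2 and Cnn3, and 0 were called lower; of all 27010 probe sets 1.57% were called, 1.14% higher and 0.422% lower. At an unadjusted p under 0.05, 11 member probe sets were higher and 0 lower, where 4.54% of all probe sets were higher. Probe sets of 1 gene share their transcript and are not independent, and with 1 probe set per gene, that with the highest mean, 4 of 7 genes were called. The count was 3 to 6 with any single array left out, the 3 being Tagln, Cnn1 and Cnn2 without cytochalasin D replicate 3, and 2 in a fit to the 6 arrays compared. In that smaller fit Tagln was not called (limma adjusted p = 0.0772), whereas Cnn1 and Cnn2 kept their calls. Cnn1 is in these counts because its drug-treated values passed the filter. With all 9 arrays required above the 40th percentile it was untested, and 5 member probe sets were called. Of all 19 member probe sets 13 had cytochalasin D values wholly above the controls, 11 of them among the 17 tested, where 5.05% of all tested probe sets did.

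In the double-drug group, 0 of the 17 were called against controls in limma, and 5 were higher at an unadjusted p under 0.05, for Tagln, Tagln2, Cnn2 and Cnn3. Over the array 0.111% were called, 0.1% higher and 0.0111% lower, and 2.67% were higher at that unadjusted p. The background itself was unstable here, 30 probe sets being called in either direction and 123 with the replicate number as a block, which pairs the arrays of these 2 groups; the block added no member. Without a single array that background count was 42 (control replicate 1), 16 (cytochalasin D replicate 7) or 0 to 2 (any of the other 7). For 9 of the 17 member probe sets the double-drug values lay wholly above the controls, against 4.09% of all tested probe sets.

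Cytochalasin D against the double-drug group gave 1 called member, Cnn1, where 0.259% of all probe sets were called, 0.248% higher and 0.0111% lower. At an unadjusted p under 0.05, 8 of the 17 were higher, against 2.47% of all. Cnn1 was called in the 16 alternatives that tested it (limma adjusted p up to 0.0234). Among them was the fit with no filter on dim probe sets, while the rest let it in through its drug-treated arrays. The filter that asks for all 9 arrays above the 40th percentile left it untested. Groups did not overlap for 10 of the 17, always with cytochalasin D higher, where 2.92% of all tested probe sets were parted that way. The 3 comparisons share arrays pairwise and are therefore not independent of each other.

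**Figure D3:**
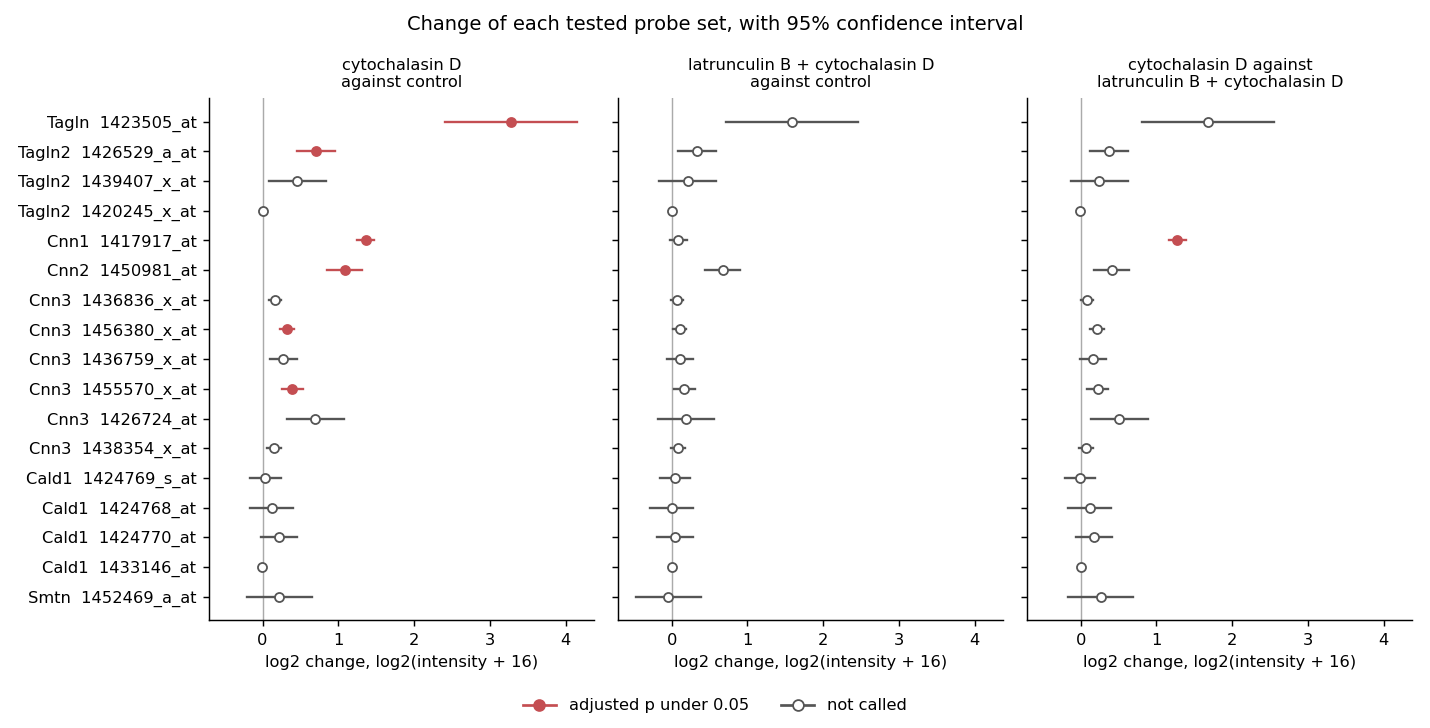
Log2 change of each of the 17 tested probe sets (points) with its 95% confidence interval (lines) in the 3 comparisons, on the log2(intensity + 16) scale; filled red points were called at an adjusted p under 0.05. In the left panel 6 points are filled, in the middle panel 0, and in the right panel Cnn1.

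The genes whose values ran most like those of Tagln over the 9 arrays were looked for among 12644 other genes, by Pearson's r on the log2 scale and as a description, since all points share the group differences. The closest were Acta2, smooth muscle alpha-actin (r = 0.996), Myl9, a myosin regulatory light chain (0.993), Fhl2, a LIM-domain protein of stress fibres and a partner of SRF (0.990), Akap1, an anchoring protein for protein kinase A at mitochondria (0.985), and Zfp281, a zinc finger factor (0.984). Myl9 went from 126 ± 56.5 in controls to 1568 ± 272 with cytochalasin D and 420.2 ± 111 with both drugs (SD, n = 3). As with Tagln, its control replicate 7 was the lowest array. Among the members r with Tagln was 0.944 for Cnn2, 0.887 for Tagln2, 0.865 for Cnn1, 0.818 for Cnn3, 0.592 for Lmod1, 0.357 for Smtn and 0.167 for Cald1, each by the probe set with the highest mean.

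**Figure D4:**
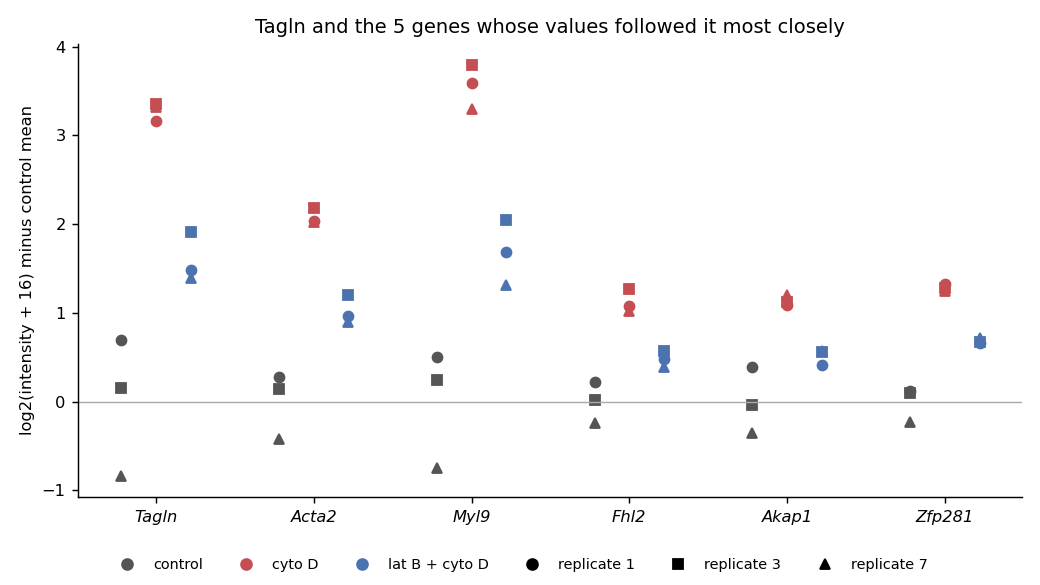
Values of Tagln and of the 5 genes most correlated with it over the 9 arrays, as log2(intensity + 16) minus the gene's control mean (vertical axis), with 1 point per array, colours for groups and shapes for replicate numbers. In all 6 genes the double-drug points lie between the control and the cytochalasin D points, and control replicate 7 is the lowest point.

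Other genes of the same systems were counted with 1 tested probe set each, the one of highest mean. These lists, like the members, were chosen with earlier results of these data known. Their shares beside those of all probe sets are therefore a description and no test. Of 23 smooth muscle contractile genes outside the members 16 were tested, and 8 rose with cytochalasin D, 0 fell and 8 were not called, where 1.14% of all tested probe sets were called higher; their median log2 change was 0.87, against -0.00098 over all probe sets tested. The risers were Acta2, Actg2, Myl9, Myl6, Csrp1, Tpm1, Ppp1r12a and Fhl1. Actg2, the gamma-actin of enteric smooth muscle, had a log2 change of 2.51 (adjusted p = 0.000923 in limma). Csrp1, a LIM protein of actin bundles, rose by 1.66 and Fhl1, a LIM-domain protein of muscle, by 1.80. The count was 5 when replicate 3 of either the control or the cytochalasin D group was dropped, and 6 to 9 for any other array.

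Of 30 other MRTF-SRF targets, all tested, 19 rose, 0 fell and 11 were not called, against the same 1.14%, with a median change of 1.34; the count was 16 to 18 with single arrays left out. Ccn1, a secreted matricellular protein, rose by 2.06, and Tpm4, a tropomyosin, by 0.84. Acta1, skeletal muscle alpha-actin, rose by 5.00, and Dstn, the actin-depolymerizing factor destrin, by 0.83. Among promoters, 3 of 19 smooth muscle genes with a window (Myl9, Myl6 and Fhl1) and 6 of 25 MRTF-SRF targets (Acta1, Actg1, Srf, Vcl, Fhl2 and Lima1) held a CArG box without mismatch. So did 1 of 7 members, 0 of 7 relatives of the members and 1.47% of all windows. A gene with several windows was counted if any of them matched, whereas the share of all is per window.

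In the double-drug group 1 of the 16 smooth muscle genes (Csrp1, 0.84, limma adjusted p = 0.0412) and 5 of the 30 targets were higher than in controls (Actg1, Srf, Tpm4, Ccn1 and Junb), where 0.1% of all probe sets were, with median changes of 0.26 and 0.59 against 0.0032 over all probe sets. Csrp1 kept its call without control replicate 1 and lost it without any of the other 8 arrays (limma adjusted p up to 0.218). The 5 targets became 3 when control replicate 1 or cytochalasin D replicate 7 was dropped, 1 when cytochalasin D replicate 3 was, 0 for any of the other 6 arrays, and 8 with the replicate block, which pairs these groups and under which Csrp1 was not called (limma adjusted p = 0.0744). Cytochalasin D exceeded the double-drug group for Actg2, Csrp1 and Fhl1 among the former and for Acta1, Ccn2, Ankrd1, Dstn, Itga5 and Tuft1 among the latter, with median changes of 0.61 and 0.48 against -0.0059 over all probe sets, of which 0.248% were called higher. With the replicate block 2 and 2 were called. Without single arrays these were 1 to 3 and 0 to 4 genes: 1 without cytochalasin D replicate 1 or 3 or any double-drug array for the first list, and for the second list 4 or 3 when control replicate 1 or 7 was dropped, 1 when any cytochalasin D array was, and 0 when control replicate 3 or any double-drug array was. Actg2 kept its call in this comparison with any single array left out.

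Relatives of the members were not called. Of 9 genes (Tagln3, Lmod2, Lmod3, Smtnl1, Smtnl2 and Tmod1 to Tmod4) 5 were tested. In limma 0 of them were called in any comparison, nor did any have an unadjusted p under 0.05. Lmod3 was dim, at 6.09 to 6.43 over the arrays. Tmod2 (7.67 to 7.94) and Tagln3 (7.93 to 9.74) lay close to the array medians of 7.57 to 7.84. At such levels the added constant understates changes, so whether these genes responded cannot be decided. The brighter relatives tested, Tmod1 and Tmod3, are both tropomodulins. Tmod3, the widespread tropomodulin that caps pointed filament ends, read 733 ± 196 in controls, 735 ± 94.3 with cytochalasin D and 762 ± 204 with both drugs (SD, n = 3). Tmod1, the tropomodulin of red cells and striated muscle, had a change of -0.28 with cytochalasin D (limma adjusted p = 0.538).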

How the data were processed

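Affymetrix array RNA measurements of 9 NIH 3T3 cultures were used, 3 per group, grouped by the agent label. The deposited intensity values are on a linear scale and came normalized from the authors. MAS5 and GCRMA are both named, per the submitters' processing notes, and which of them made these values is not given in the sources used here. Precision is limited by 3 arrays a group. The genome build is not given in the sources used here. Symbols came from the platform annotation, updated by gene identifier through RefSeq GRCm38.p6 (34741 of 34945 probe sets with 1 symbol matched; 932 had several symbols and 9160 none, apart from 64 controls). No array pair of 36 was identical.

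Intensities were changed to log2(intensity + 16), which understates changes of dim probe sets. Probe sets above the 40th percentile on at least 3 arrays were fitted together in R 4.3.3 with limma 3.58.1 (lmFit, eBayes), 1 coefficient per group, two-sided, Benjamini-Hochberg adjustment per comparison; the fit was tested on simulated data. Members and lists were chosen with earlier results of these data known. Named are all members, the 5 genes most correlated with Tagln, and up to 4 genes with the smallest adjusted p per list and comparison, besides genes listed as called. The replicate numbers were taken to pair arrays where every same-numbered pair of deviations correlated above 0.1: this held for both comparisons with the double-drug group (0.411 to 0.834) but not for cytochalasin D against control (0.71, 0.076 and 0.653). Alternatives were other constants (1 and 64), filters, quantile normalization, the replicate block, 6-array fits, a trended robust prior and each array left out.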

Additional observations from a re-analysis of the deposited data

How the results depend on the processing

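Of the members' calls against controls, those of Cnn2 held under every alternative run and those of Cnn1 under every alternative that tested it; Tagln lost its call in 1 of 17 alternatives, the fit to the 6 arrays compared. Tagln2 probe set 1426529_a_at was called in 8 of 17 and Cnn3 probe sets 1456380_x_at and 1455570_x_at in 15 and 7 of 17. Without a filter on dim probe sets 4 member probe sets were called, that of Tagln2 (limma adjusted p = 0.0586) and 1455570_x_at (0.0557) being lost. After quantile normalization the latter was lost too (limma adjusted p = 0.0591). The 6-array fit gave 2 called member probe sets and 159 called probe sets in all for cytochalasin D against control. For the double-drug group against control 1 probe set was called in all, and between the drug groups 9 were. That fit has fewer samples. With single arrays left out, called member probe sets ranged from 3 to 6, 0 to 0 and 1 to 1 in these comparisons. All called probe sets ranged from 227 to 478, 0 to 42 and 3 to 59. The replicate block gave 8 called member probe sets for cytochalasin D against control, adding 1436836_x_at and 1426724_at of Cnn3. It changed no other member call. With it 1044 and 123 probe sets were called in the first 2 comparisons, against 423 and 30. Requiring all 9 arrays above the 40th percentile left Cnn1 untested and so 0 called members between the drug groups. Without a filter 8 and 16 probe sets were called in the comparisons with the double-drug group, against 30 and 70, and for that group against control 14 with 64 added and 15 after quantile normalization; the cause was not tested. With each gene taken by its brightest probe set alone, directions reversed for uncalled genes, with ranges over left-out arrays of -0.065 to 0.13 (Cald1), -0.00028 to 0.0044 (Tmod2), -0.0016 to 0.0055 (Lmod3) and -0.14 to 0.23 (Tmod3) for cytochalasin D against control, -0.18 to 0.12 (Smtn), -0.00025 to 0.051 (Tagln3) and -0.19 to 0.016 (Tmod1) for the double-drug group, and -0.11 to 0.082 (Cald1), -0.048 to 0.0029 (Tagln3) and -0.0066 to 0.00087 (Lmod3) between the drug groups. List counts and list genes under the alternatives were added after seeing the data.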
